A study of Rattus norvegicus with 9 samples.

Results

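Stellate cell, fibroblast and matrix genes are described here in rat liver. They are 37 genes for collagens, small proteoglycans, other matrix proteins, matrix proteases with their inhibitors, cytoskeletal proteins, and receptors and surface or stellate cell markers. The members were chosen by name, as all probe sets to which the array's annotation gives 1 of the 37 symbols. All 37 were on the array, among 10411 genes that its annotation names singly, and they take up 55 of its 15923 probe sets. Another 3 probe sets annotated to both Acta2 and Actc1 were not used, since they carry more than 1 symbol.

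Total RNA of whole liver was hybridised to 9 one-colour arrays. By their titles, 3 arrays were of Burn-CLP liver (a burn and CLP), 3 of Sham-CLP liver (a sham procedure and CLP) and 3 of Sham-Sham liver (controls with sham procedures only). CLP is not spelled out in the labels. The letters commonly mean cecal ligation and puncture in rodent studies of injury, a procedure that infects the abdomen. The labels give neither the strain, sex or age of the rats nor the time of collection. Nothing says that the 3 arrays of a group are 3 animals, so p-values speak to the spread among these arrays alone, and that spread may be technical.

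Hepatic stellate cells lie between hepatocytes and the sinusoidal endothelium, store vitamin A as retinyl esters, and can turn into contractile, matrix-producing cells after injury. Fibrillar collagens are secreted as procollagens, trimmed by proteases, and crosslinked in the matrix, where small proteoglycans bind to the fibrils. Matrix metalloproteinases cut this matrix, and the tissue inhibitors of metalloproteinases block them. RNA from whole liver mixes all of its cells, so fewer cells of a type and less RNA per cell cannot be told apart.

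Signals below are quantile-normalized intensities. A floor was set at 64.3, the 20th percentile over all arrays, and lower signals were raised to it for the tests. Probe sets above the floor on 3 or more of the 9 arrays were tested, which left 52 member probe sets for 35 genes, of which 42 lay above the floor on all 9 arrays. Tagln, a smooth muscle actin-binding protein gene, lay at the floor on all 9 arrays. Tgfb1, which encodes the profibrotic cytokine TGF-beta 1, lay above it only on Sham-Sham 1, at 71.0. A second probe set of Thy1 was above the floor on 2 arrays and was not tested. The stellate cell genes Lrat and Des were above the floor on all 9 arrays. A probe set is said to be called where limma's adjusted p over all 13535 tested probe sets was under 0.05, and "rose" and "fell" are used of called probe sets.

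Of the 52 tested member probe sets, 2 rose and 0 fell in Burn-CLP liver against Sham-Sham liver by limma, where 0.325% of all tested probe sets rose and 0.421% fell (0.746% called either way). These were Pcolce and Dcn. At an unadjusted p under 0.05 there were 7 higher and 10 lower members, where 10% of all tested probe sets were higher and 9.85% lower. In Sham-CLP liver against Sham-Sham liver 0 members were called by limma, where 0.0591% of all tested probe sets were, and 6 higher and 7 lower members had an unadjusted p under 0.05, against 5.83% and 5.90% of all. In Burn-CLP liver against Sham-CLP liver 0 members were called, where 0.0148% of all were, and 3 higher and 0 lower members had an unadjusted p under 0.05, against 3.9% and 5.19% of all. For the mean of both CLP groups against Sham-Sham liver 1 member, Pcolce, was called, where 0.355% of all were, and 7 higher and 10 lower members had an unadjusted p under 0.05, against 9.31% and 9.09% of all.

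The median log2 change over the 52 member probe sets was -0.096 for Burn-CLP minus Sham-Sham, against 0.009 over all tested probe sets. It was -0.164 for Sham-CLP minus Sham-Sham, against 0.005 over all, and -0.008 for Burn-CLP minus Sham-CLP, against 0.019 over all. Without Sham-Sham 1, an array described below, the median for Burn-CLP minus Sham-Sham turned its sign, at 0.018, and that for Sham-CLP minus Sham-Sham was -0.089. These comparisons share arrays and are not independent of each other. The median SD within groups was 0.314 on the log2 scale for the members and 0.308 for all tested probe sets.

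**Figure D1:**
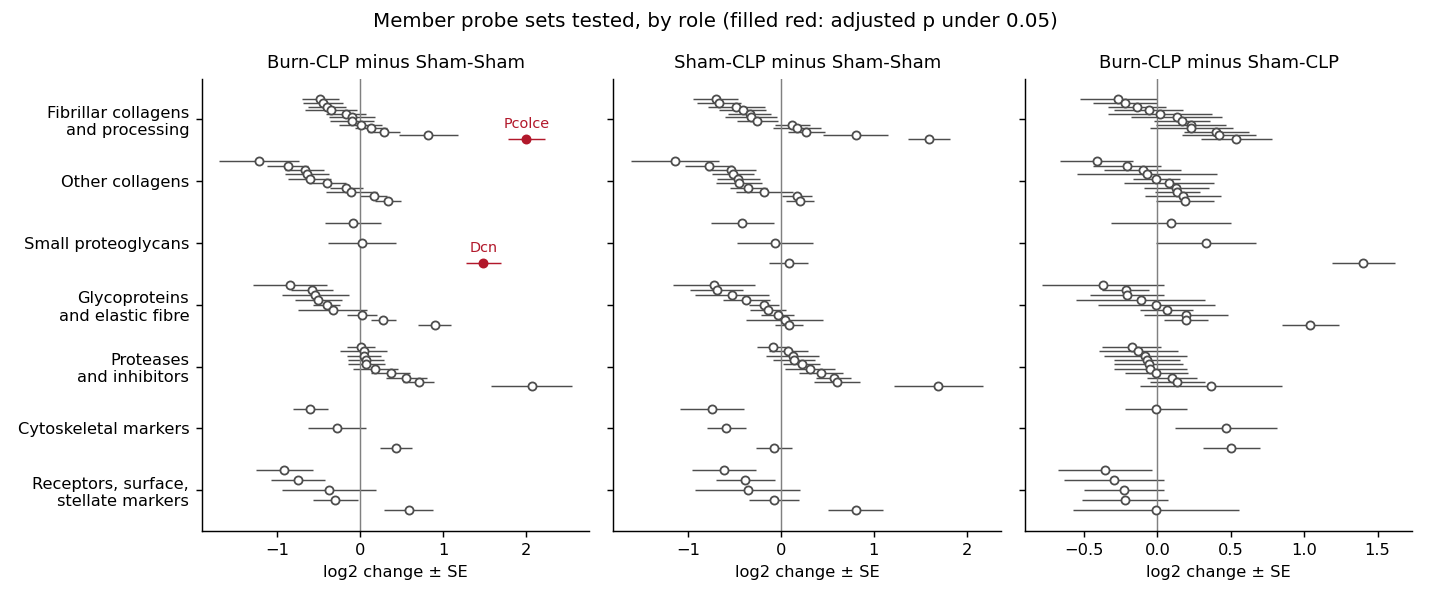
Log2 change with its standard error (SE) on the x axis for each of the 52 tested member probe sets, arranged by role, in 3 comparisons of 3 arrays each. Pcolce (2.00) and Dcn (1.48) for Burn-CLP minus Sham-Sham are the filled red points, called by limma, and most other points lie within 1 log2 unit of 0.

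Sham-Sham 1 stood apart from the other arrays. Its median deposited intensity was 117.5% of the mean over arrays, and its mean correlation with the others was 0.8897, against 0.9217 to 0.9485 for the rest. Of the 52 member probe sets, 13 had their highest signal on Sham-Sham 1, where 23.3% of all tested probe sets did. On Burn-CLP 1, 12 members had their lowest signal, where 8.47% of all tested probe sets did, and on Burn-CLP 2, 11 members had their highest, where 16.4% of all did. Of the 51 member probe sets tested with and without Sham-Sham 1, leaving it out turned the sign of the change for 8 in Burn-CLP and for 3 in Sham-CLP, each against Sham-Sham. Values without it are given beside many of the results that follow.

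Markers of other liver and blood cells were read on the same arrays. Of 12 macrophage markers 8 were on the array and 0 were called by limma, with 2 higher in Burn-CLP against Sham-Sham at an unadjusted p under 0.05. Their summed signal ran from 10990 to 15890 in Burn-CLP, from 10200 to 12150 in Sham-CLP and from 9233 to 10410 in Sham-Sham, so that the Burn-CLP and Sham-Sham arrays did not overlap. Of 10 neutrophil markers 7 were on the array, with sums of 864.1 to 1762 in Burn-CLP, 836 to 950 in Sham-CLP and 807.1 to 1224 in Sham-Sham. The neutrophil gene S100a9, whose product binds calcium, rose in Burn-CLP against Sham-Sham (log2 change 2.80 ± 0.41 SE, limma adjusted p = 0.0239). It was the 1 called of 5 tested, where 0.746% of all tested probe sets were called. At an unadjusted p under 0.05, 2 of the 5 were higher and 1 lower there, with a median log2 change of 0.066. In Sham-CLP against Sham-Sham 1 was higher and 1 lower, with a median of -0.275. Mesothelial markers (4 of 7 on the array) summed to 2711 to 3203 in Burn-CLP, 2670 to 3124 in Sham-CLP and 2544 to 3448 in Sham-Sham. Most of this sum was Krt8, at 1717 to 2063 in Burn-CLP, 1846 to 2183 in Sham-CLP and 1744 to 2694 in Sham-Sham. The sum thus mostly follows this gene and is not read as a measure of mesothelial cells. Msln was 0.70 ± 0.18 SE above Sham-Sham in Burn-CLP (limma adjusted p = 0.0944) and 0.47 ± 0.18 in Sham-CLP (adjusted p = 0.383). The median log2 change of the 4 was 0.097 in Burn-CLP and -0.176 in Sham-CLP. Endothelial markers (9 of 13) summed to 2960 to 4010 in Burn-CLP, 2996 to 3594 in Sham-CLP and 3593 to 4146 in Sham-Sham. The brightest, Kdr, was at 723.1 to 1319 in Burn-CLP and 723.1 to 1240 in Sham-CLP, below 1364 to 1768 in Sham-Sham. Against Sham-Sham, 0 endothelial markers were higher and 1 lower in Burn-CLP at an unadjusted p under 0.05, and 0 and 2 in Sham-CLP. Their median log2 change was 0.325 in Burn-CLP and -0.069 in Sham-CLP, and 0 were called by limma. Hepatocyte markers (11 of 12), bile duct markers (7 of 10, Cldn7 at the floor), lymphocyte markers (10 of 12) and globins and other blood genes (4 of 6) were also summed. Burn-CLP arrays summed to 227500 to 237900 for hepatocyte, 1615 to 2239 for bile duct, 1695 to 1951 for lymphocyte and 10030 to 12070 for blood genes. Sham-CLP arrays summed to 218200 to 236200 for hepatocyte, 1604 to 1774 for bile duct, 1565 to 1668 for lymphocyte and 11610 to 12770 for blood genes. Sham-Sham arrays summed to 227100 to 229400 for hepatocyte, 1721 to 1869 for bile duct, 1659 to 2374 for lymphocyte and 12890 to 16070 for blood genes. The part of these cells in the results for the members was not tested.

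Among the genes of fibrillar collagens and their processing, Pcolce moved apart from the collagens themselves. Pcolce encodes the procollagen C-endopeptidase enhancer, a secreted protein that speeds the removal of the C-terminal propeptide from fibrillar procollagens. Its signal was 1385, 1570 and 2083 on the Burn-CLP arrays, 1405, 1057 and 1319 on the Sham-CLP arrays, and 355, 383 and 519 on the Sham-Sham arrays. Every array of both CLP groups lay above every Sham-Sham array, and the CLP groups overlapped each other. The means were 1679 ± 362 in Burn-CLP, 1260 ± 181 in Sham-CLP and 419 ± 87.5 in Sham-Sham (SD, n = 3 each). Pcolce rose 4.0-fold in Burn-CLP against Sham-Sham (log2 change 2.00 ± 0.22 SE, 95% interval 1.5 to 2.5, limma adjusted p = 0.00749). In Sham-CLP against Sham-Sham it was 3.03-fold higher (1.60 ± 0.22, interval 1.09 to 2.10) with an adjusted p of 0.0553 in limma, which is not a call. For the mean of both CLP groups it rose 3.48-fold (1.80 ± 0.19, limma adjusted p = 0.00743). Burn-CLP was 0.40 ± 0.22 above Sham-CLP on the log2 scale (limma adjusted p = 0.632). Without Sham-Sham 1 the changes against Sham-Sham were 1.92 in Burn-CLP (limma adjusted p = 0.0239) and 1.71 for the mean (limma adjusted p = 0.0267). The Sham-CLP difference was called by limma without Sham-Sham 3 (1.75, adjusted p = 0.0135), and the call for the mean was lost without Sham-Sham 2 (1.75, adjusted p = 0.0533).

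**Figure D2:**
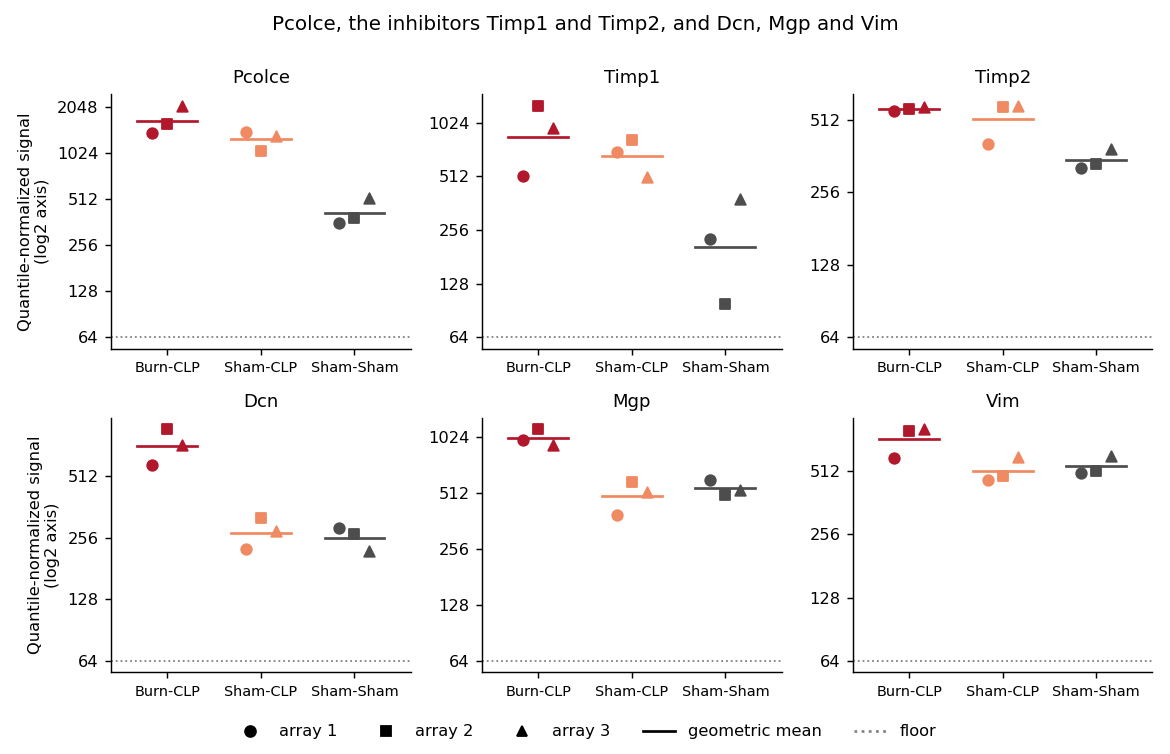
Quantile-normalized signal (log2 axis) of 6 member probe sets on the 9 arrays, with a point per array, a line at each group's geometric mean and a dotted line at the floor of 64.3. Pcolce and Timp1 are higher on every array of both CLP groups than on every Sham-Sham array, while Dcn and Mgp are higher on the 3 Burn-CLP arrays than on all 6 others.

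The stretch of 250 bases upstream of the start of Pcolce is shown because Pcolce was the member with the smallest p, beside that of Timp1, a protease inhibitor gene described further on, which had the highest log2 change of the members. Both are from the RefSeq promoter table of the GRCr8 build, 5′ to 3′ along the gene's strand, and 21 of the 37 members have an entry there. The Pcolce stretch is chr12:24720722-24720971 on the plus strand and the Timp1 stretch is chrX:3771123-3771372 on the minus strand. Capitals mark matches, on either strand, to the motifs searched.
Pcolce: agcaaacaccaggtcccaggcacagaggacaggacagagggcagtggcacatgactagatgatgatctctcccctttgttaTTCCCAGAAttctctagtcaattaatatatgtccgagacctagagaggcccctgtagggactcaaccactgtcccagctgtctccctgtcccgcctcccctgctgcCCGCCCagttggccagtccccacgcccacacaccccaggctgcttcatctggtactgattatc
Timp1: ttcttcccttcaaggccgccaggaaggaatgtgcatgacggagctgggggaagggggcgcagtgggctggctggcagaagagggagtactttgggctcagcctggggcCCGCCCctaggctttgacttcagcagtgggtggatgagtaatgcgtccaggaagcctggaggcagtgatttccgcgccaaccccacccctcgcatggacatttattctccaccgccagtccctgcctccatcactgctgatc
The motifs searched in these windows were AP-1 (TGANTCA), C/EBP (TTNNGCAA), STAT (TTCNNNGAA), NF-kB (GGG and TTCC with any 3 bases between), SMAD (CAGACA), the TATA box (TATAAA) and the GC box (GGGCGG). Pcolce holds the STAT letters as TTCCCAGAA at bases 169 to 161 before the start and a GC box at bases 63 to 58. Timp1 holds a GC box at bases 142 to 137. The STAT letters are in 7.67% of all 33469 promoters and in 1 of the 21 member promoters. The GC box is in 30.5% of all promoters and in 12 of the 21 member promoters. SMAD letters are in 17.2% of all and in 4 of the members, the TATA box in 12.9% and 2, C/EBP in 9.22% and 1, AP-1 in 6.34% and 2, and NF-kB in 4.53% and 0. A match describes the letters only.

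The fibrillar collagens were not called by limma in any comparison, and in Sham-CLP against Sham-Sham 2 of their probe sets, 1 each of Col1a1 and Col1a2, were lower at an unadjusted p under 0.05. In Burn-CLP against Sham-Sham and against Sham-CLP 0 of them passed that p. Col1a1 and Col1a2 encode the chains of type I collagen, the main collagen of scar tissue. With one of its probe sets, the signal of Col1a1 was 319, 496 and 361 in Burn-CLP, 226, 267 and 309 in Sham-CLP, and 511, 477 and 331 in Sham-Sham. All 3 Sham-CLP arrays lay below all other arrays, and the Burn-CLP and Sham-Sham arrays overlapped. Sham-CLP minus Sham-Sham was -0.71 ± 0.24 SE on the log2 scale (limma adjusted p = 0.347), and Burn-CLP minus Sham-CLP was 0.54 ± 0.24 (limma adjusted p = 0.548). The second Col1a1 probe set gave -0.41 and 0.42 for these differences, so both probe sets run the same way.

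Col1a2 read, with one probe set, 356, 485 and 508 in Burn-CLP, 330.4, 352 and 469 in Sham-CLP, and 797, 515 and 534 in Sham-Sham. Every CLP array lay below every Sham-Sham array, and Sham-Sham 1 was the highest of all. The mean of both CLP groups minus Sham-Sham was -0.56 ± 0.21 SE (limma adjusted p = 0.212), and -0.36 without Sham-Sham 1 (adjusted p = 0.503). Its other probe set was at -0.37 ± 0.20 for the same difference.

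Col3a1, which encodes type III collagen, was the brightest probe set of the fibrillar group. It read 2174, 2949 and 3286 in Burn-CLP, 2590.2, 3231 and 3976 in Sham-CLP, and 3614, 4158 and 3780.1 in Sham-Sham. The Burn-CLP arrays lay below the Sham-Sham arrays without overlap, and the Sham-CLP arrays reached into both. In the deposited intensities Burn-CLP and Sham-Sham overlapped, with 3291.7 on Burn-CLP 3 and 3260.2 on Sham-Sham 1. Burn-CLP minus Sham-Sham was -0.48 ± 0.22 SE on the log2 scale (limma adjusted p = 0.261).

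Type V collagen regulates fibril diameter. Its probe sets ran from -0.35 to 0.29 in log2 change for Burn-CLP minus Sham-Sham, with both Col5a2 probe sets above 0 and both Col5a1 probe sets below (1 of them above 0 without Sham-Sham 1), and the smallest limma adjusted p of these was 0.416. Lox, the lysyl oxidase that starts collagen crosslinking, read 165, 286 and 222 in Burn-CLP, 181, 209 and 267 in Sham-CLP, and 123, 75.7 and 204 in Sham-Sham with one probe set. The mean of both CLP groups minus Sham-Sham was 0.81 ± 0.30 SE (limma adjusted p = 0.213), and it was called by limma only without Sham-Sham 3 (1.17, adjusted p = 0.0469). The other Lox probe set, which had 4 of 9 arrays at the floor, gave 0.04, or 0.29 without Sham-Sham 1.

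Over the 12 probe sets of fibrillar collagens and their processing, the median log2 change was -0.096 for Burn-CLP minus Sham-Sham and -0.292 for Sham-CLP minus Sham-Sham. For Burn-CLP minus Sham-CLP it was 0.150, with 8 of 12 above 0. Without Sham-Sham 1 the median for Burn-CLP minus Sham-Sham was 0.014.

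The other collagens (basement membrane and beaded or fibril-associated types) lay mostly below Sham-Sham, and 0 of their 10 probe sets was called by limma. In Burn-CLP against Sham-Sham 8 of 10 had a negative log2 change (median -0.499), where 6653 of all 13535 tested probe sets did. Of the 10, 5 were lower at an unadjusted p under 0.05, where 9.85% of all were. In Sham-CLP against Sham-Sham 8 of 10 were also below 0 (median -0.460), where 6696 of all were. There 3 were lower at an unadjusted p under 0.05, where 5.90% of all were. Without Sham-Sham 1 the medians were -0.312 in Burn-CLP and -0.326 in Sham-CLP, over 9 probe sets.

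Col14a1 encodes type XIV collagen, which binds along fibrils and interacts with decorin. With one probe set it read 163, 109 and 199.9 in Burn-CLP, 229, 158 and 232 in Sham-CLP, and 280.4, 275 and 282 in Sham-Sham. The 3 Sham-Sham arrays lay close together and above all 6 CLP arrays. The difference of Burn-CLP minus Sham-Sham was -0.87 ± 0.25 SE (limma adjusted p = 0.117), with -0.87 also without Sham-Sham 1 (adjusted p = 0.196). The second Col14a1 probe set was at -0.67 ± 0.23 (limma adjusted p = 0.169), with 366, 337 and 519 in Burn-CLP, 454, 376 and 577 in Sham-CLP, and 575, 739 and 604 in Sham-Sham.

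Col4a1, a chain of the basement membrane collagen type IV, read 391, 436 and 434 in Burn-CLP, 274, 374 and 501 in Sham-CLP, and 864, 561 and 538 in Sham-Sham with one probe set. Every CLP array lay below every Sham-Sham array. Sham-CLP minus Sham-Sham was -0.78 ± 0.26 SE (limma adjusted p = 0.337), or -0.58 without Sham-Sham 1, and the other Col4a1 probe set gave -0.52 ± 0.22. Col4a2, the partner chain, was at -0.35 ± 0.20 in Sham-CLP and -0.16 ± 0.20 in Burn-CLP, each minus Sham-Sham.

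Type VI collagen forms beaded filaments near cells. Col6a1 read 377, 487 and 678 in Burn-CLP, 556, 501 and 549 in Sham-CLP, and 1045, 746 and 598 in Sham-Sham, so Sham-CLP lay below Sham-Sham without overlap and Burn-CLP overlapped it. Burn-CLP minus Sham-Sham was -0.64 ± 0.26 SE for Col6a1 (limma adjusted p = 0.225), and -0.43 without Sham-Sham 1. For Col6a2 one probe set lay near the floor, at 23.1, 33.7 and 45.3 in Burn-CLP, 48.4, 53.8 and 74.7 in Sham-CLP, and 348, 149 and 27.7 in Sham-Sham. The Sham-Sham arrays of this probe set disagreed among themselves, and it was called lower by limma only when Sham-Sham 3 was left out (-1.82 for Burn-CLP minus Sham-Sham, adjusted p = 0.0235, against -1.21 with all arrays, adjusted p = 0.210). The other Col6a2 probe set, above the floor on all arrays, was at -0.10 ± 0.31.

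Col18a1, whose C-terminal fragment is endostatin and which hepatocytes also make, was the brightest of these collagens and ran the other way. It read 5783, 7034 and 6504 in Burn-CLP, 5623, 6039.8 and 5874 in Sham-CLP, and 5145, 5220.1 and 4903 in Sham-Sham with one probe set. Every CLP array lay above every Sham-Sham array. The difference was small, at 0.34 ± 0.15 SE for Burn-CLP minus Sham-Sham (limma adjusted p = 0.259), and the second probe set gave 0.16 ± 0.16.

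**Figure D3:**
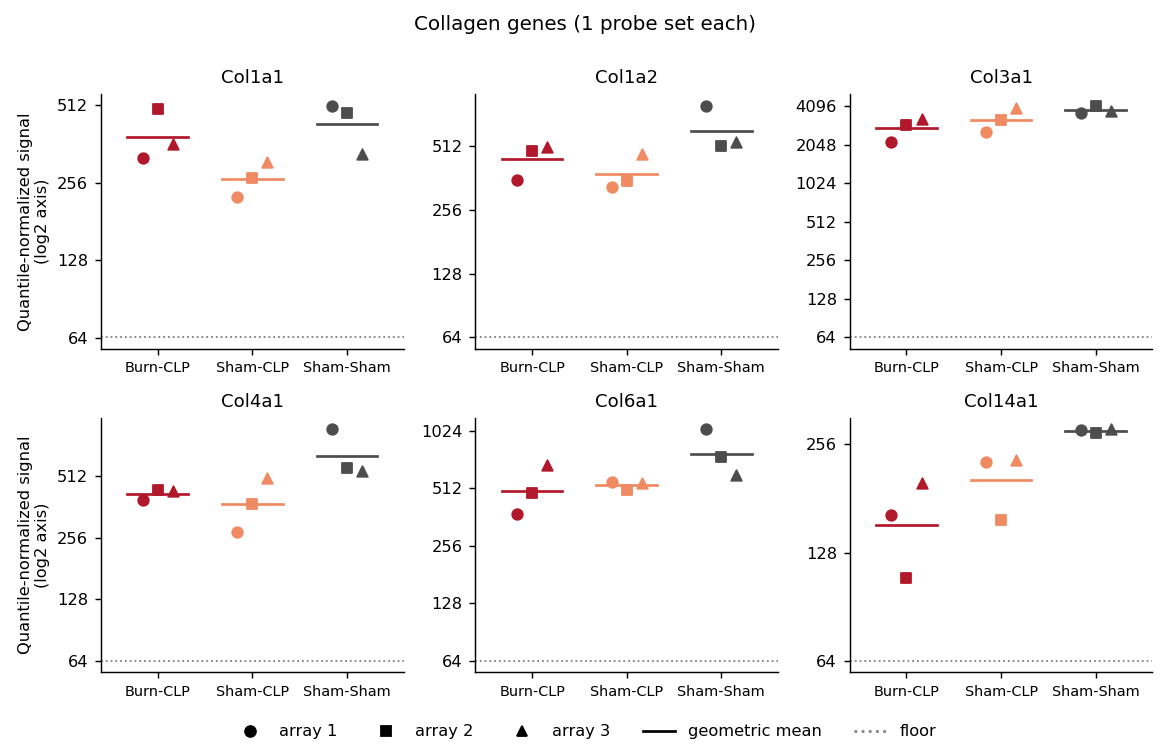
Quantile-normalized signal (log2 axis) of 6 collagen probe sets on the 9 arrays, with a point per array, a line at each group's geometric mean and a dotted line at the floor of 64.3. Sham-Sham 1 (circle) is the highest array for Col1a2, Col4a1 and Col6a1, and the 3 Sham-Sham arrays of Col14a1 (275 to 282) lie above all 6 CLP arrays.

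The small proteoglycans did not move together, and Dcn was the one that passed. Dcn encodes decorin, which binds collagen fibrils and TGF-beta. Its signal was 581, 870.1 and 729 in Burn-CLP, 225, 319.7 and 277 in Sham-CLP, and 285, 268 and 221 in Sham-Sham. All 3 Burn-CLP arrays lay above the other 6 arrays, and the Sham-CLP and Sham-Sham arrays overlapped. The means were 727 ± 144 in Burn-CLP, 274 ± 47.5 in Sham-CLP and 258 ± 33.2 in Sham-Sham (SD, n = 3 each). Dcn rose 2.80-fold in Burn-CLP against Sham-Sham (log2 change 1.48 ± 0.21 SE, 95% interval 1.00 to 1.96, limma adjusted p = 0.0239). Sham-CLP minus Sham-Sham was 0.08 ± 0.21 (interval -0.40 to 0.56, limma adjusted p = 0.902). The test of Burn-CLP against Sham-CLP gave 1.40 ± 0.21 (2.65-fold, interval 0.92 to 1.88) with an adjusted p of 0.131 in limma, which is not a call. That p ranked Dcn at place 8 among the 13535 tested probe sets. Without Sham-Sham 1 Dcn was 1.59 above Sham-Sham in Burn-CLP (limma adjusted p = 0.0472). The limma call was lost without Burn-CLP 2 (1.34, adjusted p = 0.105) and without Sham-Sham 2 (1.52, adjusted p = 0.0655), and, like that of Pcolce, when the fit held only Burn-CLP and Sham-Sham (limma adjusted p = 0.0852 for Dcn and 0.0528 for Pcolce).

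Bgn, which encodes the related proteoglycan biglycan, read 542, 743 and 985 in Burn-CLP, 556, 744 and 791 in Sham-CLP, and 752, 378 and 1316 in Sham-Sham. The Sham-Sham arrays spanned the range of all the others. For Bgn, Burn-CLP minus Sham-Sham was 0.03 ± 0.41 SE (95% interval -0.89 to 0.95, limma adjusted p = 0.977), and 0.46 without Sham-Sham 3. Lum, which encodes lumican of the same family, read 139.6, 62.8 and 86.9 in Burn-CLP, 62.1, 59.0 and 94.5 in Sham-CLP, and 126, 115 and 40.6 in Sham-Sham, with 4 of 9 arrays at the floor. Its log2 changes were -0.09 ± 0.34 for Burn-CLP minus Sham-Sham and -0.42 ± 0.34 for Sham-CLP minus Sham-Sham. For Lum these were 0.10 and -0.24 without Sham-Sham 1, and -0.39 and -0.72 without Sham-Sham 3.

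Mgp, like Dcn, was highest on the 3 Burn-CLP arrays. It encodes matrix Gla protein, an inhibitor of calcification. Mgp read 979, 1122 and 923 in Burn-CLP, 389, 584 and 514 in Sham-CLP, and 599, 495 and 530.4 in Sham-Sham. All 3 Burn-CLP arrays lay above the other 6, and the Sham-CLP and Sham-Sham arrays overlapped. Burn-CLP was 0.90 ± 0.19 SE above Sham-Sham (1.86-fold, limma adjusted p = 0.0677) and 1.04 ± 0.19 above Sham-CLP (2.06-fold, limma adjusted p = 0.181), so neither was called. Sham-CLP minus Sham-Sham was -0.14 ± 0.19 for Mgp.

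Of the 9 probe sets of matrix glycoproteins and elastic fibre, 0 were called by limma in any comparison. At an unadjusted p under 0.05, 1 was higher and 2 lower in Burn-CLP against Sham-Sham 0 and 1 in Sham-CLP against Sham-Sham, and 1 (Mgp) and 0 in Burn-CLP against Sham-CLP. The median log2 change was -0.400 for Burn-CLP minus Sham-Sham and -0.185 for Sham-CLP minus Sham-Sham. Fn1, which encodes fibronectin and is made in quantity by hepatocytes for plasma, was the brightest of all member probe sets. It read 15430.2, 16497 and 15201 in Burn-CLP, 13805, 13967 and 13322 in Sham-CLP, and 11853, 12909.7 and 14187 in Sham-Sham. After quantile normalization the Burn-CLP arrays lay above both other groups without overlap, by 0.28 ± 0.15 SE over Sham-Sham (limma adjusted p = 0.334). In the deposited intensities Fn1 read 14461.3, 17120.5 and 14538.5 in Burn-CLP, and 15903, 15323.9 and 13800.2 in Sham-CLP. The 2 CLP groups thus overlapped there, and both lay above Sham-Sham, at 10508.5, 12519.3 and 13755.4.

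Fbn1, which encodes the microfibril protein fibrillin 1, read 121, 231 and 183 in Burn-CLP, 121, 137 and 205 in Sham-CLP, and 209, 298 and 233 in Sham-Sham with one probe set. Sham-CLP lay below Sham-Sham without overlap, and Burn-CLP overlapped both groups. The change was -0.70 ± 0.29 SE in Sham-CLP (limma adjusted p = 0.402) and -0.50 ± 0.29 in Burn-CLP (adjusted p = 0.353), and the other Fbn1 probe set gave -0.38 and -0.58. Eln, the elastin gene, was at 183, 274 and 288 in Burn-CLP, 209.7, 338 and 206 in Sham-CLP, and 671, 305 and 215 in Sham-Sham. Its change for Burn-CLP minus Sham-Sham, -0.54 ± 0.40, was -0.07 without Sham-Sham 1.

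The probe sets of Sparc, a collagen-binding matrix protein gene, disagreed. One gave -0.84 ± 0.44 SE for Burn-CLP minus Sham-Sham, with 1667, 624 and 1395 in Sham-Sham, and the other gave 0.03 ± 0.18.

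Reln, which encodes the glycoprotein reelin and marks quiescent stellate cells in liver, read 786, 846 and 851 in Burn-CLP, 849, 958 and 1088 in Sham-CLP, and 1122, 1146 and 1012 in Sham-Sham with the probe set above the floor on all arrays. The Burn-CLP arrays lay below the Sham-Sham arrays, with Sham-CLP between and overlapping both. Burn-CLP minus Sham-Sham was -0.40 ± 0.16 SE (limma adjusted p = 0.217).

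The 10 probe sets of the 5 protease and inhibitor genes stood mostly above Sham-Sham, although 0 were called by limma. In Burn-CLP 10 of 10 were above 0 (median log2 change 0.128), where 6882 of all 13535 tested probe sets were. In Sham-CLP 9 of 10 were (median 0.267), where 6839 of all were. In each of these comparisons 3 had an unadjusted p under 0.05, all of them higher. Without Sham-Sham 1 the counts were 9 of 10 in each, with medians of 0.228 in Burn-CLP and 0.294 in Sham-CLP. Burn-CLP minus Sham-CLP had a median of -0.053. Several of the 10 are probe sets of the same gene, and for Burn-CLP minus Sham-Sham several lay within their SE of 0. Among these were Mmp14 (0.04 ± 0.28) and a probe set each of Timp2 (0.05 ± 0.20) and Mmp2 (0.07 ± 0.21).

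Timp1, whose inhibitor is secreted by activated stellate cells, hepatocytes and macrophages among other cells, had the highest log2 change of the members. It read 514, 1275 and 949 in Burn-CLP, 699.7, 814 and 509 in Sham-CLP, and 227, 98.2 and 382 in Sham-Sham. Every CLP array lay above every Sham-Sham array, while the Sham-Sham arrays differed widely among themselves. Burn-CLP was 4.18-fold above Sham-Sham (log2 change 2.06 ± 0.48 SE, 95% interval 0.98 to 3.15, limma adjusted p = 0.0762). Sham-CLP was 1.70 ± 0.48 above Sham-Sham (3.24-fold, limma adjusted p = 0.306), and the mean of both CLP groups 1.88 ± 0.42 (3.68-fold, adjusted p = 0.102). Leaving out Sham-Sham 3, its highest Sham-Sham array, gave limma calls in all 3 of these comparisons, at 2.51 (adjusted p = 0.0262), 2.14 (adjusted p = 0.0489) and 2.32 (adjusted p = 0.0189). Leaving out Sham-Sham 1 gave 2.16 for Burn-CLP minus Sham-Sham and no limma call (adjusted p = 0.138).

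**Figure D4:**
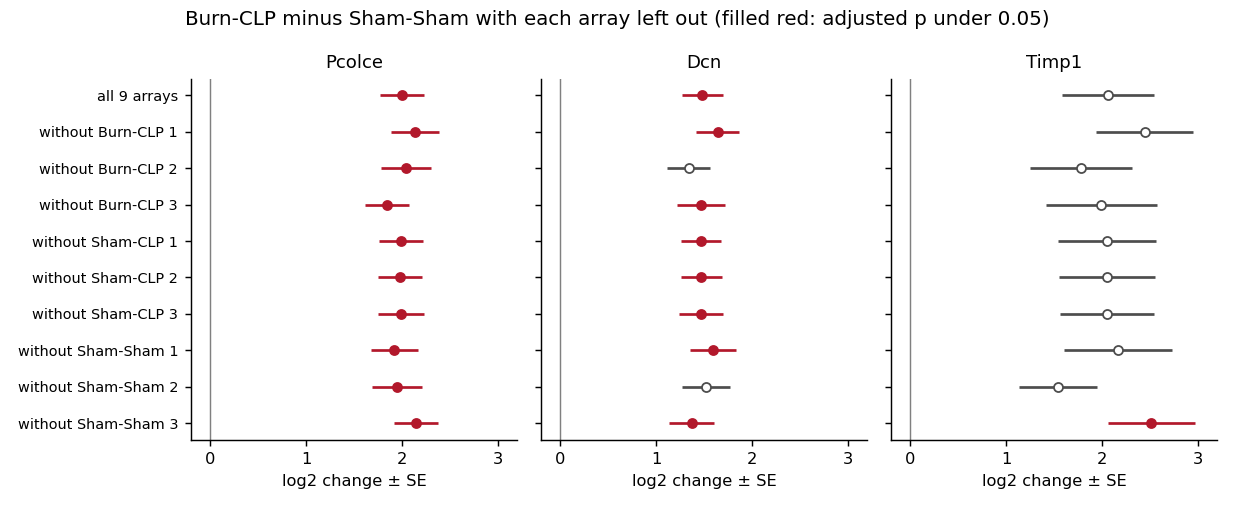
Log2 change for Burn-CLP minus Sham-Sham with its SE on the x axis, in the fit of all 9 arrays and in 9 fits that each leave out 1 array, for Pcolce, Dcn and Timp1. Filled red points are limma calls: Pcolce is called in every row, Dcn is not called without Burn-CLP 2 or Sham-Sham 2, and Timp1 is called only without Sham-Sham 3.

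Timp2, an inhibitor that also takes part in activating the protease of Mmp2, had probe sets that differed. With one it read 553, 567 and 575 in Burn-CLP, 405, 576 and 585 in Sham-CLP, and 323, 335 and 387 in Sham-Sham. Every CLP array lay above every Sham-Sham array, by 0.70 ± 0.19 SE in Burn-CLP (limma adjusted p = 0.103) and 0.57 ± 0.19 in Sham-CLP (adjusted p = 0.333). With the other the arrays overlapped, at 148, 242 and 198 in Burn-CLP, 215, 230.3 and 205 in Sham-CLP, and 177, 177 and 203 in Sham-Sham. That probe set gave 0.05 ± 0.20 for Burn-CLP and 0.22 ± 0.20 for Sham-CLP, each minus Sham-Sham.

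Timp3 encodes an inhibitor that binds to the matrix. Its 4 probe sets gave log2 changes of 0.01 to 0.37 for Burn-CLP minus Sham-Sham and of -0.09 to 0.43 for Sham-CLP minus Sham-Sham, with no limma adjusted p under 0.401 in Burn-CLP. Mmp2, the gelatinase made by stellate cells, was 0.58 ± 0.21 SE above Sham-Sham for the mean of both CLP groups with one probe set (limma adjusted p = 0.208) and 0.07 ± 0.19 with the other. The first of these was 0.37 without Sham-Sham 1 (limma adjusted p = 0.498). Mmp14, which encodes the membrane-bound protease that activates MMP-2, was the brightest of this group, at 1236, 1589 and 774 in Burn-CLP, 1016, 1277 and 1386 in Sham-CLP, and 1224, 857 and 1321 in Sham-Sham. The 3 groups of Mmp14 overlapped throughout, with 0.04 ± 0.28 for Burn-CLP minus Sham-Sham and 0.11 without Sham-Sham 1.

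Of the 3 cytoskeletal genes tested, 0 were called by limma in any comparison, and at an unadjusted p under 0.05 there was 1 lower gene, Acta2, in each CLP group against Sham-Sham and 1 higher gene, Vim, in Burn-CLP against Sham-CLP. Acta2 encodes alpha smooth muscle actin, the usual marker of activated stellate cells and of vascular smooth muscle. It read 320.4, 289 and 245 in Burn-CLP, 282, 281 and 291 in Sham-CLP, and 573, 352 and 392 in Sham-Sham. Every CLP array lay below every Sham-Sham array, and Sham-Sham 1 was the highest. The change against Sham-Sham was -0.60 ± 0.21 SE in Burn-CLP (limma adjusted p = 0.173) and -0.59 ± 0.21 in Sham-CLP (adjusted p = 0.360). Without Sham-Sham 1 these were -0.40 and -0.39.

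Vim, the vimentin gene, read 589, 795 and 808 in Burn-CLP, 461, 485 and 593 in Sham-CLP, and 502, 512 and 602 in Sham-Sham. The lowest Burn-CLP array overlapped the highest arrays of both other groups. Vim was 0.50 ± 0.19 SE above Sham-CLP in Burn-CLP (limma adjusted p = 0.478) and 0.43 ± 0.19 above Sham-Sham (adjusted p = 0.252), and vimentin is also abundant in macrophages and other white blood cells. Des, which encodes desmin of stellate and muscle cells, read 143, 205 and 157 in Burn-CLP, 119, 86.6 and 169.7 in Sham-CLP, and 331, 178 and 139 in Sham-Sham. Its change for Burn-CLP minus Sham-Sham was -0.28 ± 0.35 with all arrays and 0.08 ± 0.29 without Sham-Sham 1.

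**Figure D5:**
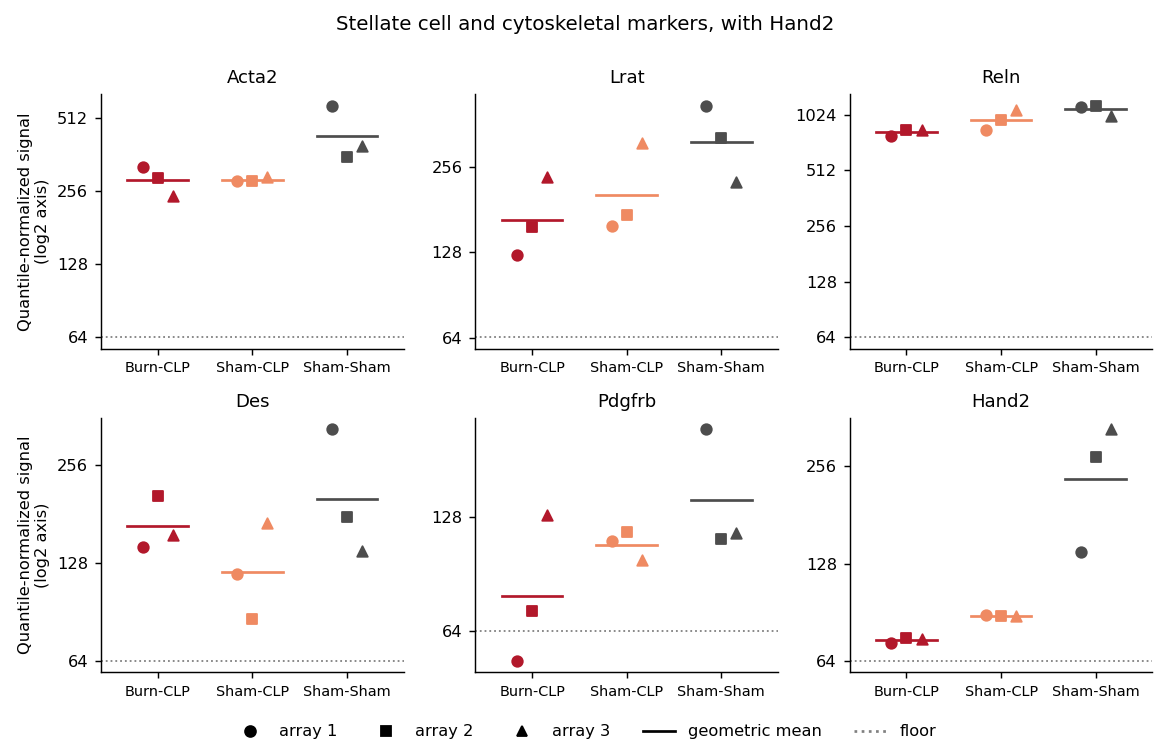
Quantile-normalized signal (log2 axis) of 5 member probe sets and of Hand2, with a point per array, a line at the geometric mean of the plotted signals of each group and a dotted line at the floor of 64.3, to which the Pdgfrb point below it was set in the tests. The 6 CLP arrays lie below the 3 Sham-Sham arrays for Acta2 and Hand2, and Sham-Sham 1 (circle) is the highest array for Acta2, Lrat, Des and Pdgfrb.

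The receptors, surface proteins and stellate cell markers had 5 tested probe sets, 0 of them called by limma in any comparison. At an unadjusted p under 0.05, 0 were higher and 2 lower in Burn-CLP against Sham-Sham, and 1 was higher and 0 lower in Sham-CLP against Sham-Sham. Lrat encodes lecithin retinol acyltransferase, which forms the retinyl esters that stellate cells store. It read 125, 157 and 235 in Burn-CLP, 159, 173 and 309.7 in Sham-CLP, and 420.1, 322 and 225 in Sham-Sham, and the groups overlapped. For Lrat, Burn-CLP minus Sham-Sham was -0.91 ± 0.34 SE (limma adjusted p = 0.194), and -0.70 ± 0.36 without Sham-Sham 1 (adjusted p = 0.383).

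The receptor genes for platelet-derived growth factor differed in sign. Pdgfra read 396, 401 and 316 in Burn-CLP, 499, 409 and 389.9 in Sham-CLP, and 149, 296 and 339 in Sham-Sham, so the Sham-CLP arrays lay above the Sham-Sham arrays and Burn-CLP overlapped them. Its change was 0.80 ± 0.29 SE in Sham-CLP (limma adjusted p = 0.370) and 0.58 ± 0.29 in Burn-CLP, or 0.45 and 0.23 without Sham-Sham 1, where it was lowest. Pdgfrb, the receptor through which stellate cells are driven to divide, read 53.7, 72.3 and 129 in Burn-CLP, 110.4, 117 and 98.4 in Sham-CLP, and 218, 112 and 116 in Sham-Sham. For Pdgfrb, Burn-CLP minus Sham-Sham was -0.74 ± 0.32 (limma adjusted p = 0.241), with 1 Burn-CLP array at the floor, and -0.44 ± 0.29 without Sham-Sham 1.

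Thy1, a surface marker of portal fibroblasts and of rat T cell precursors, gave -0.30 ± 0.27 SE for Burn-CLP minus Sham-Sham and -0.07 ± 0.27 for Sham-CLP minus Sham-Sham with its tested probe set. Without Sham-Sham 1, its highest array, these were -0.04 and 0.18. Lgals1, which encodes the lectin galectin 1, read 40.2, 83.4 and 189.9 in Burn-CLP, 43.7, 130.4 and 124 in Sham-CLP, and 286, 51.1 and 119.7 in Sham-Sham. Its groups overlapped throughout, and the sign of its change for Burn-CLP minus Sham-Sham turned when Sham-Sham 1 was left out (-0.37 ± 0.57 with all arrays and 0.20 ± 0.50 without it).

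The arrays of Burn-CLP and Sham-Sham did not overlap for 8 member probe sets that were higher and 8 that were lower, where 11% of all tested probe sets were higher and 10.5% lower in this way. In Sham-CLP against Sham-Sham the counts were 6 and 8, where 8.10% and 8.65% of all did, and in Burn-CLP against Sham-CLP they were 4 and 0, where 9.61% and 9.22% did. All 6 CLP arrays lay above the 3 Sham-Sham arrays for 4 member probe sets and below them for 4, where 3.55% of all tested probe sets were higher and 4.01% lower in this way. The probe sets above were of Pcolce, Timp1, Timp2 and Col18a1, and those below were of Col1a2, Col4a1, Col14a1 and Acta2. For Timp2, Col18a1, Col1a2, Col4a1 and Col14a1 the gene's other probe set overlapped between the CLP and Sham-Sham arrays.

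Genes of the same pathways that are not members were read from 5 lists, with 1 probe set per gene. Of the 18 tested of 22 genes of TGF-beta and PDGF signalling 0 were called by limma in any comparison, and the smallest p for the mean of both CLP groups was that of Tgfbi, a TGF-beta-induced matrix protein gene (-0.56 ± 0.21 SE, adjusted p = 0.207). Of the 11 tested of 16 genes of collagen synthesis and crosslinking 0 were called by limma in any comparison, and for the mean of both CLP groups the smallest p was that of P3h1, a prolyl hydroxylase of collagen (-0.45 ± 0.16, adjusted p = 0.200). Of the 21 tested of 28 other matrix proteins 0 were called by limma in any comparison, and for that mean the smallest p was that of Fmod, which encodes the collagen-binding proteoglycan fibromodulin (-0.65 ± 0.21, adjusted p = 0.169). Of the 12 tested of 18 other proteases and inhibitors 0 were called by limma in any comparison, and for that mean the smallest p was that of the membrane protease gene Adam10 (1.27 ± 0.41, adjusted p = 0.175). At an unadjusted p under 0.05 for the mean of both CLP groups, 0 higher and 1 lower gene of the first list passed, 0 and 2 of the second, 3 and 3 of the third, and 1 and 1 of the fourth.

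Of the 16 tested of 21 other stellate cell and smooth muscle markers 1 was called. Over all tested probe sets 0.746% were called in Burn-CLP against Sham-Sham and 0.355% for the mean of both CLP groups. At an unadjusted p under 0.05, 1 of the list was higher and 5 lower in Burn-CLP against Sham-Sham. The counts were 0 and 1 in Sham-CLP against Sham-Sham, and 0 and 3 for the mean. Hand2, a transcription factor gene expressed in quiescent stellate cells, read 72.8, 75.5 and 74.8 in Burn-CLP, 88.6, 88.4 and 88.3 in Sham-CLP, and 139, 273 and 334 in Sham-Sham. The CLP arrays lay close together just above the floor, Burn-CLP below Sham-CLP, and all of them below Sham-Sham. Hand2 fell 3.14-fold in Burn-CLP against Sham-Sham (log2 change -1.65 ± 0.28 SE, limma adjusted p = 0.0388) and 2.88-fold for the mean of both CLP groups (-1.52 ± 0.25, limma adjusted p = 0.0406). Sham-CLP minus Sham-Sham was -1.40 ± 0.28 (limma adjusted p = 0.196). By limma, the call in Burn-CLP was lost in 12 of 16 other settings, with adjusted p-values of 0.00389 to 0.139 over all 16, and it was kept without Sham-Sham 1 (-2.02, adjusted p = 0.00389). The median log2 change of this list was -0.330 in Burn-CLP and -0.268 in Sham-CLP, each minus Sham-Sham.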

How the data were processed

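Files of 9 arrays were used, 1 per sample, grouped by their titles. The deposited values are intensities, 1 per probe set, which the authors supplied already scaled: by their values, each array has a mean of 500.139 to 500.174 after 2% is trimmed from each end. Their derivation from scans was not given in the sources used here. Array precision is limited by their number, and probe positions were not used.

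In R 4.3.3 with limma 3.58.1, the intensities were quantile-normalized, floored at 64.3 and log2-transformed, with the 57 control probe sets included. The controls were then removed, and dim probe sets were filtered as described above. The remaining 13535 probe sets were fitted with lmFit and eBayes over all 3 groups, which left 6 residual degrees of freedom, and p-values were adjusted by Benjamini-Hochberg. Genes were named from the platform annotation (12783 probe sets with 1 symbol, 312 with several, 2771 with none). Simulated data with 200 changed probe sets gave 110 calls in Burn-CLP against Sham-Sham, 4 of them false, and recovered 25% of changes of 1 log2 unit and 81% of changes of 2. The simulated noise was independent between probe sets and of the same spread on all arrays. It thus held no array that stands apart, as Sham-Sham 1 does, and the false count may differ in the real data.

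Values on all arrays are given for members that were called, were the brightest of their role or had its smallest p, and for others where a comparison within a role needed them. From each pathway list the called gene is given, or the one with the smallest p. Other scalings, floors, filters and fits were tried, as was leaving out each array. The members and lists were chosen with earlier results of these data known.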

Additional observations from a re-analysis of the deposited data

How the results depend on the processing

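With only the groups compared in the fit, 0 members were called by limma in Burn-CLP against Sham-Sham, in place of 2, and fewer residual degrees of freedom remained there. Pcolce kept its call in 15 of 16 other settings and Dcn in 13 of 16. Requiring all 9 arrays above the floor gave 1 call in Sham-CLP against Sham-Sham, Pcolce (adjusted p = 0.0426), in place of 0. Leaving out 1 array gave 1 call (without Sham-Sham 2 or Burn-CLP 2) to 4 calls (without Sham-Sham 3) in Burn-CLP against Sham-Sham, 0 to 3 (without Sham-Sham 3) in Sham-CLP against Sham-Sham, and 0 (without Sham-Sham 2) to 4 (without Sham-Sham 3) for the mean of both CLP groups. The members' median log2 change for Burn-CLP minus Sham-CLP ran from -0.042 to 0.135 (without Sham-CLP 3), and that for Burn-CLP minus Sham-Sham from -0.154 to 0.018 (without Sham-Sham 1). The second Timp2 probe set, at -0.17 for Burn-CLP minus Sham-CLP, was at 0.01 under the deposited scaling and at -0.34 to 0.02 (without Burn-CLP 1) with 1 array left out. The causes of these shifts were not tested.

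Correlations of same-numbered arrays' deviations from their group means ran from -0.0261 to 0.0806, and those of differently numbered arrays from -0.0725 to 0.0366. The same-numbered arrays thus reached higher, though all values were small. The labels do not say that the numbers pair the arrays, and the main fit did not pair them. With the replicate block, 2, 0, 0 and 1 members were called in Burn-CLP against Sham-Sham, Sham-CLP against Sham-Sham, Burn-CLP against Sham-CLP and the mean of both CLP groups against Sham-Sham, the same counts as without it. Over all probe sets the calls were 59, 4, 0 and 17 with it and 101, 8, 2 and 48 without. In Burn-CLP against Sham-Sham the overall count was 53 with the floor at the 10th percentile, 56 with no floor and log2(signal + 16), 13 with only the groups compared, and 19 to 645 with 1 array left out. In Sham-CLP against Sham-Sham it was 4 under the deposited scaling and 4 to 347 with 1 array left out, in Burn-CLP against Sham-CLP 0 to 36, and for the mean 31 with no floor, 32 above the floor on all 9 arrays and 8 to 721 with 1 array left out. The highest counts were without Sham-Sham 3, except 36 without Burn-CLP 3. The deposited scaling moved the median of all tested probe sets to 0.114 in Burn-CLP minus Sham-CLP and to -0.0808 in Sham-CLP minus Sham-Sham. Hand2, whose alternatives were added after its call was seen, kept its call in 4 of 16 settings in Burn-CLP against Sham-Sham and in 4 of 15 for the mean.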
